A study of Homo sapiens with 4 samples.

Results

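The 3 Mb of chromosome 8 around MYC held 93 of the 23721 c-Jun peaks in the 4 peak lists of the series. These were all peaks with their centre between positions 127500000 and 130500000 of hg19. Membership was set by position and not by peak height, but the interval was chosen with earlier results of these data known. MYC lies at 128748315 to 128753680 on the plus strand, and PVT1 begins 53.1 kb beyond its 3′ end, by limits recalled from RefSeq and not read from a file. Overlapping peaks of the 4 lists were joined into 41 sites, of 12091 in the genome.

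Binding was measured by ChIP-seq, which sequences the DNA fragments that an antibody pulls down together with the protein crosslinked to them. The cells were BT549, an established line of triple-negative breast cancer, and had been serum-starved. One c-Jun library was made from cells without TNFalpha and 1 from cells with TNFalpha, for 6 hours by the sample labels and 3 hours by the series text. Peaks of each c-Jun library were called against normal rabbit IgG and against input chromatin, both from cells with TNFalpha, so the library without TNFalpha had no control of its own condition. Each condition had 1 library, so no difference below has a replicate check and no p-value was computed. Read depth is unknown, and an uncalled site may be one that fell under the caller's threshold.

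c-Jun forms part of AP-1, a dimeric transcription factor of enhancers and promoters, and TNFalpha is an inflammatory cytokine whose receptor signals to the kinases that phosphorylate c-Jun. MYC encodes a transcription factor that drives growth and proliferation. It sits in a region poor in protein-coding genes, and its transcription is known to depend on enhancers spread over long distances on both sides. PVT1 is a long noncoding RNA gene and the host of several miRNAs, and its promoter is known to compete with that of MYC for enhancers. In the RefSeq table of GRCh38.p14, used for gene order only, LRATD2, PCAT1, PRNCR1, CASC19, CCAT1, CASC21, CASC8, POU5F1B and CASC11 precede MYC in this order, and PVT1, LINC02912, LINC00824 and CCDC26 follow it. Peaks were placed against MYC and PVT1 alone.

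No c-Jun peak was called at MYC itself in any of the 4 lists. The gene lay in a peak-free stretch of 182 kb, from 128681588 to 128863704. The nearest peak on the upstream side ended 66.7 kb before the MYC transcript start, and the nearest on the downstream side began 115 kb after it, inside PVT1. A stretch of this size was not unusual: 31.9% of the 12042 gaps between successive sites in the genome were at least as long. By length it ranked 4 among the 40 gaps of the region, whose median was 52.7 kb. All c-Jun peaks of the region were thus distal to MYC.

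**Figure D1:**
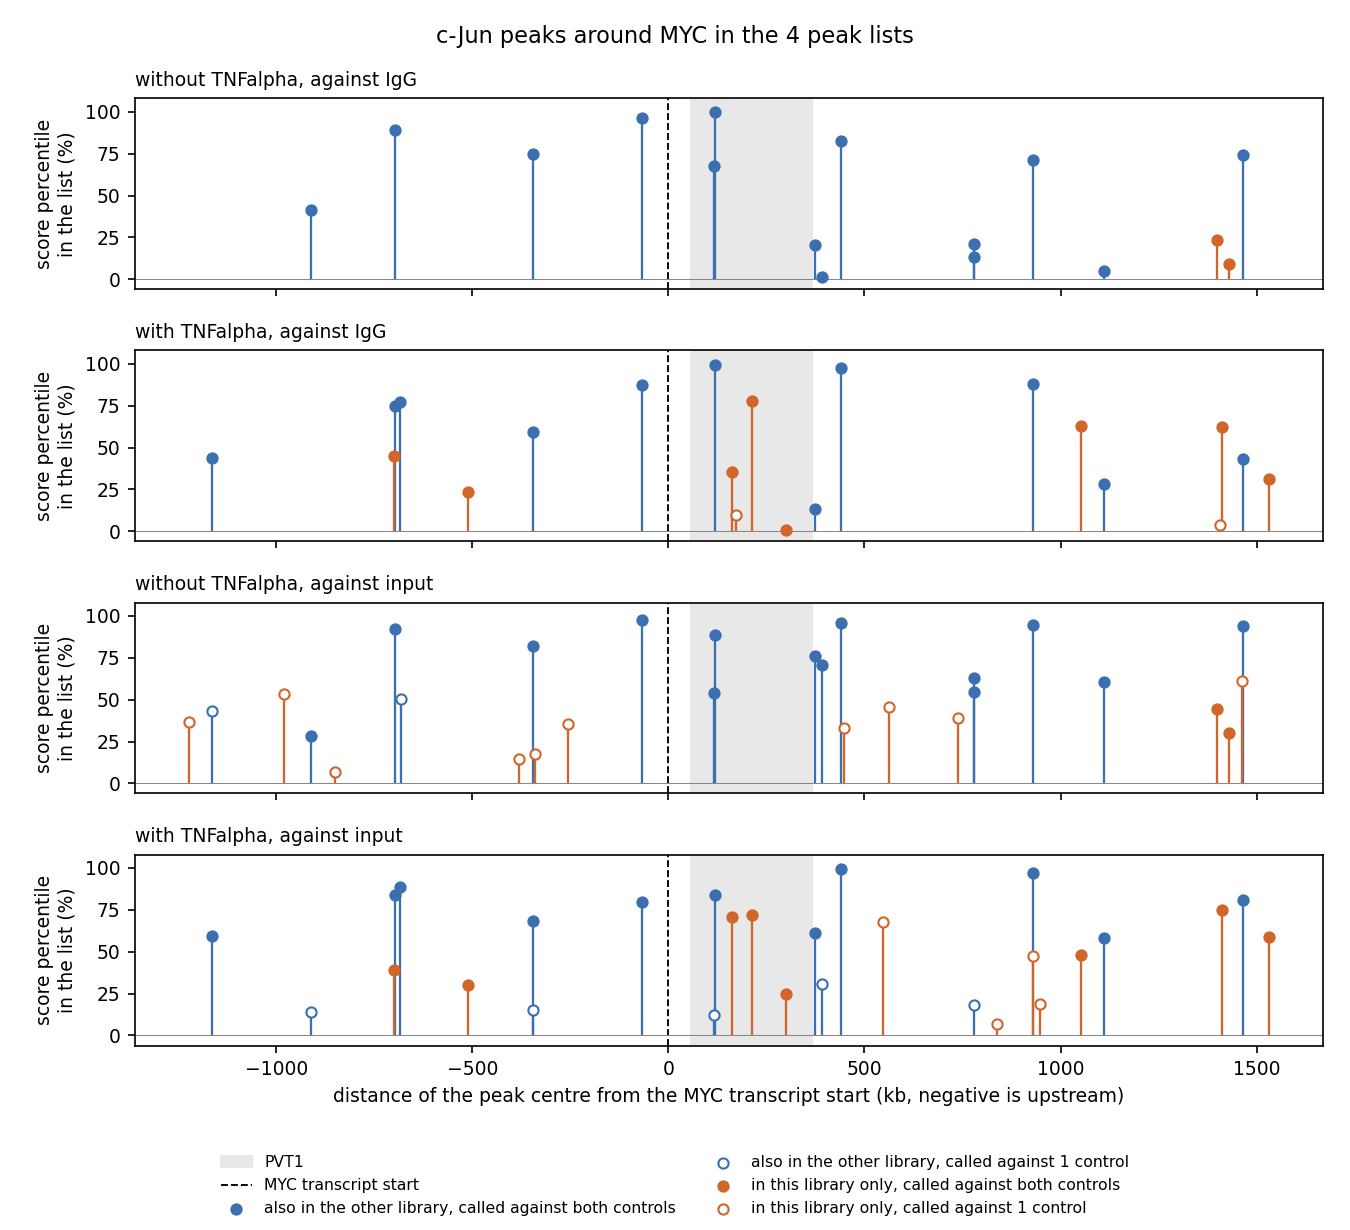
Peaks of the MYC region in each list, plotted by distance of the centre from the MYC transcript start (kb) and by score percentile within the list (percent, 100 being the highest score). Filled points were called against both controls, open points against 1; the stretch of 182 kb around the dashed line holds no peak, and the point nearest 100 in both IgG-controlled lists is the PVT1 site 118 kb downstream.

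Peaks were nevertheless dense across the region. Against IgG, 16 peaks of the region were called without TNFalpha, of 3323 in the list, and 21 with it, of 4439. The count with TNFalpha was thus higher in the region and in the whole list. Against input 28 were called in each library, of 7919 without TNFalpha and 8040 with it. Without TNFalpha, 16 of the region's 16 peaks against IgG were found against input too, beside 92.9% in the genome. With TNFalpha this held for 19 of 21, beside 93.7% in the genome. These 16 and 19 peaks are called both-control peaks below, and each had the same start and end in the 2 lists of its library.

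Both-control peaks stood at 5.33 per Mb without TNFalpha, beside 1.797 per Mb on the rest of chromosome 8 and 1.00 per Mb in the genome. With TNFalpha the density was 6.33 per Mb, beside 2.31 and 1.35 per Mb. When the genome was divided into 1062 windows of 3 Mb counted from the start of each chromosome, the median window held 2 both-control peaks without TNFalpha and 3 with it. At least as many peaks as in the MYC region were found in 4 windows without TNFalpha and in 14 windows with it. By this count the region was among the densest of its size in each library taken on its own. The interval was chosen with earlier results of these data known, while the windows lay on a fixed grid. That grid included shorter windows at chromosome ends and windows that overlap the region itself.

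More both-control peaks of the region were called in the library with TNFalpha alone than in the other alone, but their shares were near those of the genome. A both-control peak was assigned to 1 library only if it overlapped no peak in either list of the other by at least 1 bp. With TNFalpha, 8 of 19 both-control peaks were found only in that library (42.1%, 95% Wilson interval 23.1 to 63.7%), beside 35.9% of the 4159 in the genome. Without TNFalpha, 2 of 16 were (12.5%, 3.50 to 36.0%), beside 20.1% of 3086. Both intervals, which cover counting error only, include the genome's share. When only calls against input were compared, 12 of 28 with TNFalpha and 12 of 28 without it were found in 1 library only. With the same number of highest scoring peaks from each IgG-controlled list, these were 8 of 16 and 8 of 16. In both settings the region's totals were equal in the 2 libraries, which by itself makes these counts nearly equal. The genome's shares under these 2 settings are not given, so these counts say nothing particular about the region.

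Of the 41 sites, 15 were called in both libraries (36.6%, beside 34.7% of the 12091 sites in the genome). A further 14 were called only with TNFalpha (34.1%, beside 33.5%) and 12 only without it (29.3%, beside 31.8%). There were 9 sites in all 4 lists (22.0%, beside 16.9%) and 16 in a single list (39.0%, beside 47.8%). The 95% Wilson interval of each of these shares, for counting error only, includes the genome's share. The counts by position were small. Upstream of MYC, 7 both-control peaks with TNFalpha stood beside 4 without it, and in PVT1 4 stood beside 2. In the genome, 4159 with TNFalpha stood beside 3086 without it. Further downstream the order was the other way, with 8 with TNFalpha and 10 without it. Because 2 of these 10 adjoin in 1 site, they lay at 9 sites. The difference between positions was not tested.

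**Figure D2:**
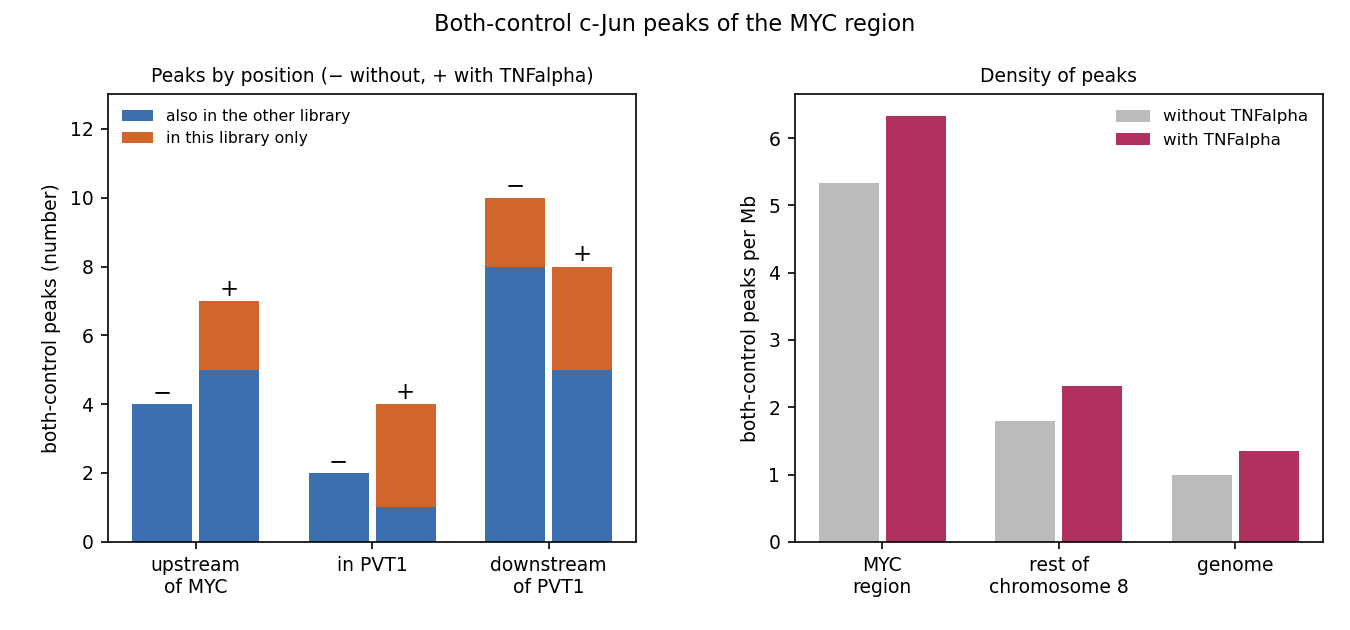
Left, number of both-control peaks upstream of MYC, in PVT1 and downstream of PVT1 in each library (− without, + with TNFalpha), divided into peaks also in the other library and peaks in 1 library only. Right, both-control peaks per Mb in the MYC region, the rest of chromosome 8 and the genome; in PVT1, 3 of the 4 peaks with TNFalpha were found only there, and the region's bars reach 5.33 and 6.33 per Mb.

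PVT1 held the highest scoring c-Jun peak of the region against IgG in both libraries. It lay 118 kb downstream of the MYC transcript start, on chromosome 8 from 128866111 to 128867056 without TNFalpha and from 128865903 to 128867052 with it. Its score was 418 against IgG without TNFalpha, rank 10 of 3323. With TNFalpha its score was 462, rank 24 of 4439. The site was thus within the highest scoring 1% of both IgG-controlled lists. Scores come from the authors' lists and their scale is not given. They are printed for both libraries, but every comparison rests on ranks inside a list.

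The same peak stood much lower in the input-controlled lists. Against input it scored 192 without TNFalpha, rank 902 of 7919, and 208 with TNFalpha, rank 1316 of 8040. It was thus in the highest scoring 11.4% and 16.4% of these lists. Of the 33 both-control peaks in the highest scoring 1% against IgG without TNFalpha, none stood lower against input, and their median was the highest scoring 0.745%. With TNFalpha it was again the lowest against input, here of 44 such peaks with a median of 0.516%. This comparison was chosen after the peak's values had been seen. Against input, the region's leading peaks were other sites: 128680674 to 128681587 without TNFalpha and 129188683 to 129189659 with it.

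A neighbouring peak in PVT1, 1.37 kb away from the leading site, stood lower with TNFalpha. Without TNFalpha it ran from 128863705 to 128864531 (827 bp) and was called against both controls, with rank 1079 of 3323 against IgG and 3665 of 7919 against input. With TNFalpha a shorter peak of 313 bp was called there, from 128864197 to 128864509. It was called only against input, at rank 7049 of 8040. The leading PVT1 peak itself was 946 bp wide without TNFalpha and 1150 bp wide with it.

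The rest of PVT1 held peaks with TNFalpha alone. Of the 6 sites in PVT1, 2 were called in both libraries and 4 only with TNFalpha (66.7%, 95% Wilson interval 30.0 to 90.3%, beside 33.5% of all sites in the genome). None was called only without TNFalpha, beside 31.8% in the genome, and with 6 sites the interval reaches 39.0%. The strongest of the 4 lay at 128961800 to 128962556, 214 kb from the MYC transcript start, with scores of 137 against IgG (rank 984 of 4439) and 147 against input (rank 2274 of 8040). From there it was 94.7 kb to the nearest peak without TNFalpha. Nothing was called at this site in either list without TNFalpha, although its rank with TNFalpha was in the highest scoring 22.2% against IgG.

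The other 3 PVT1 sites with TNFalpha alone were weaker against IgG. One at 128911057 to 128911563 ranked 2866 of 4439 against IgG and 2338 of 8040 against input. One at 129047377 to 129047636 scored 50.4 against IgG (rank 4410 of 4439) and 64.6 against input (rank 6027 of 8040). The last, at 128920121 to 128920497, was called against IgG only, at rank 4014. Hence 3 of 4 both-control peaks in PVT1 were found only with TNFalpha (75%, 95% Wilson interval 30.1 to 95.4%). This interval covers counting error only and includes the 35.9% of the genome. The 4 sites lay 163 to 299 kb from the MYC transcript start, and the first 3 of them within 51.5 kb of each other.

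Upstream of MYC, the 3 sites called in all 4 lists stood lower in the ranking with TNFalpha than without it, against either control. Against input, 6 upstream sites were called in both libraries. Of these, 2 stood higher with TNFalpha and 4 lower, beside 43.8% higher in the genome. Their median was in the highest scoring 33.7% without TNFalpha and 25.9% with it, the opposite order. The closest to MYC of the 3 sites in all lists lay 67.2 kb before the transcript start. It ran from 128680674 to 128681587 without TNFalpha and from 128680732 to 128681530 with it. It scored 238 against IgG without TNFalpha (rank 132 of 3323) and 174 with it (rank 564 of 4439). Against input it scored 358 without TNFalpha (rank 214 of 7919, the highest of the region) and 183 with it (rank 1635 of 8040). It was also narrower with TNFalpha, 799 bp beside 914 bp.

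The 2 other upstream sites called in all lists showed the same order. The one at 128403387 to 128404071 without TNFalpha, 345 kb from the transcript start, was in the highest scoring 25.0% against IgG without TNFalpha and 41.0% with it. Against input it was in the highest 17.9% and 31.4%. The one at 128050672 to 128051234, 697 kb away, was in the highest 10.8% against IgG without TNFalpha and 24.9% with it, and in the highest 7.93% and 15.9% against input. Both were narrower with TNFalpha, at 540 bp beside 685 bp and 344 bp beside 563 bp.

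The farthest of these 3 sites had close neighbours with TNFalpha. A peak found only with TNFalpha lay 2.44 kb from it, at 128047810 to 128048234, with rank 2429 of 4439 against IgG and 4916 of 8040 against input. On its other side, 13.3 kb away, the site at 128064573 to 128065274 was called against both controls with TNFalpha, at rank 1001 against IgG and 938 against input. Without TNFalpha this site was called against input only, as a peak of 364 bp at rank 3924 of 7919, beside 702 bp with TNFalpha. The 3 sites lay within 17.5 kb.

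The second upstream peak found only with TNFalpha was isolated. It lay at 128237270 to 128237748, 511 kb from the transcript start and 128 kb from any peak without TNFalpha, with rank 3383 of 4439 against IgG. A further site at 127584037 to 127584546 was called against both controls with TNFalpha and against input only without it. Against input it stood higher with TNFalpha, at rank 3271 of 8040 beside 4510 of 7919 without it. The reverse held 911 kb upstream of MYC: the peak at 127836794 to 127837279 without TNFalpha was called against both controls, and only against input with TNFalpha. Upstream, all 4 of the both-control peaks in the library without TNFalpha had a counterpart with it, and 4 peaks are too few to set this apart from the 20.1% without an overlap in the genome (95% Wilson interval up to 49.0%).

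Downstream of PVT1, 2 of the 5 sites called in all 4 lists ranked higher with TNFalpha against either control. Of all downstream sites called in both libraries, 3 of 5 ranked higher with TNFalpha against IgG, beside 51.2% in the genome. Against input 2 of 7 did, beside 43.8%. The median was in the highest scoring 28.6% without TNFalpha and 56.8% with it against IgG. Against input it was in the highest 23.8% and 39.0%. The first of the 2 sites lay 441 kb from the MYC transcript start. It ran from 129188795 to 129189517 without TNFalpha and from 129188683 to 129189659 with it. Its IgG-controlled score was 134 without TNFalpha (rank 578 of 3323) and 322 with it (rank 110 of 4439). Its input-controlled score was 297 without TNFalpha (rank 333 of 7919) and 743 with it (rank 46 of 8040). With TNFalpha it was the highest scoring peak of the region against input and the second against IgG, and it was wider, at 977 bp beside 723 bp.

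The second of these sites lay 930 kb downstream of MYC, from 129678217 to 129678703 without TNFalpha and from 129678237 to 129678715 with it. It ranked 950 of 3323 without TNFalpha and 524 of 4439 with it against IgG, and 449 of 7919 and 229 of 8040 against input. Its width was nearly equal in the libraries, 487 bp and 479 bp. A further peak of 411 bp was called beside it with TNFalpha against input only, from 129678824 to 129679234, 120 bp from the nearest peak without TNFalpha. Both of these sites therefore stood nearer the top of the list with TNFalpha than without it, against either control.

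The other downstream sites called in all 4 lists did not share this order. At 130214368 to 130215084 without TNFalpha, 1466 kb from MYC, the peak ranked 851 of 3323 against IgG without TNFalpha and 2519 of 4439 with it, and 478 of 7919 and 1517 of 8040 against input. The site at 129121076 to 129121776, 373 kb from MYC, was also lower with TNFalpha against either control, with ranks 2634 of 3323 and 3851 of 4439 against IgG. Its width was 316 bp with TNFalpha beside 701 bp without it, the largest difference among the 9 sites called in all lists. The site at 129857853 to 129858247 gave opposite orders: it was in the highest scoring 94.8% without TNFalpha and 71.6% with it against IgG, and in the highest 39.4% and 42.0% against input.

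**Figure D3:**
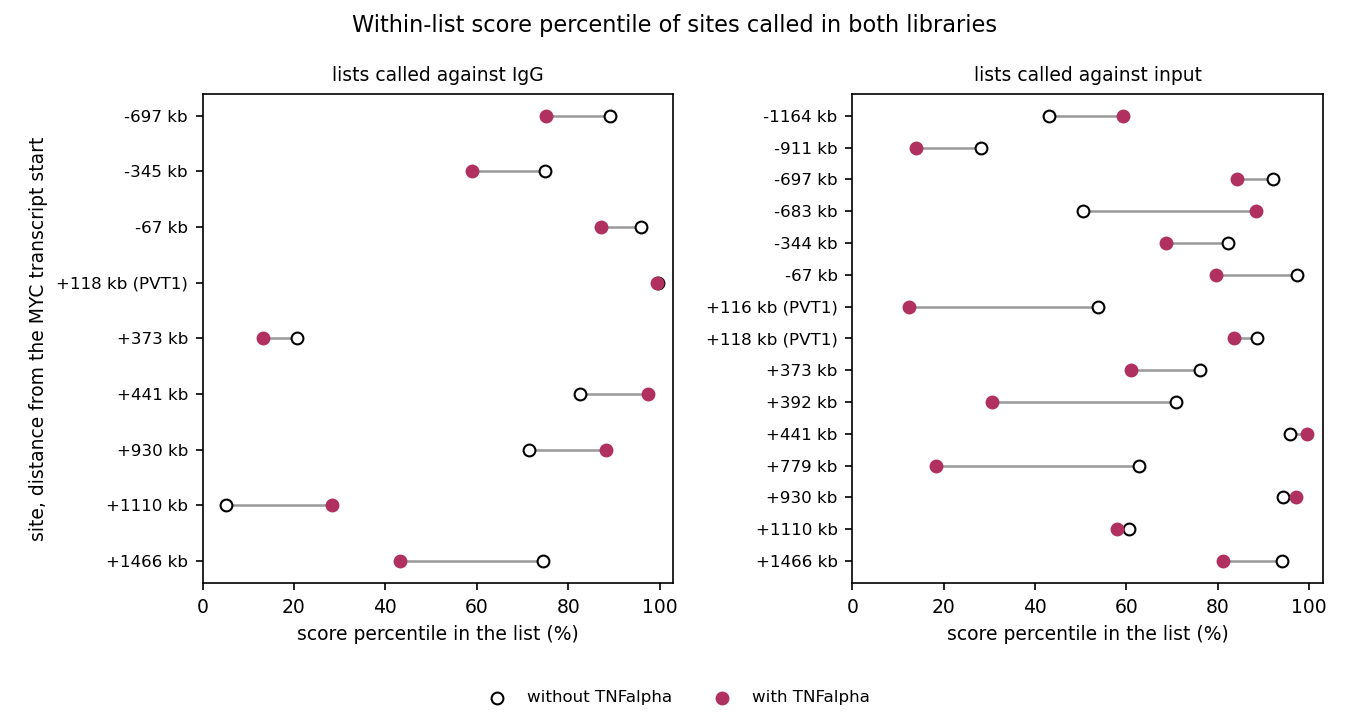
Score percentile within the list (percent, 100 being the highest score) of each site called in both libraries against the same control, without TNFalpha (open) and with TNFalpha (filled), labelled by distance from the MYC transcript start. Against IgG 3 of 9 sites and against input 4 of 15 sites stand further right with TNFalpha, among them the sites at 441 and 930 kb in both panels.

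Counted over the region, 3 of 9 sites called in both IgG-controlled lists had a higher rank percentile with TNFalpha, beside 51.2% of 2219 such sites in the genome. Against input 4 of 15 did, beside 43.8% of 4020. The median site was in the highest scoring 25.0% without TNFalpha and 24.9% with it against IgG, and in the highest 23.8% and 31.4% against input. The lists differ in length, 3323 and 4439 peaks against IgG, so a percentile is not on the same footing in both. With equal numbers of IgG-controlled peaks the median was in the highest 21.2% without TNFalpha and 25.1% with it (8 sites). Within 500 kb of the MYC transcript start it was in the highest 17.4% and 12.7% (5 sites). The order of the 2 medians thus depended on the setting. A wider peak with TNFalpha was found at 3 of the 9 sites against IgG, beside 64.3% in the genome, and at 6 of the 15 against input, beside 62.2%. These numbers describe 2 libraries, and no difference from the genome was tested.

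Beyond PVT1, 3 both-control peaks with TNFalpha and 2 without it had no overlapping peak in the other library. These were 3 of 8 (37.5%) and 2 of 10 (20%), close to the 35.9% and 20.1% of the genome. Those with TNFalpha lay at 129799939 to 129800440 (rank 1636 of 4439 against IgG), 130158664 to 130159217 (rank 1677) and 130279796 to 130280218 (rank 3057), between 1052 and 1532 kb from MYC. Those without TNFalpha lay at 130148440 to 130148796 (rank 2551 of 3323) and 130176617 to 130177026 (rank 3027), 1400 and 1428 kb from MYC. The peak at 130158664 thus fell between the pair without TNFalpha, 9.87 kb from the nearer of them.

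In addition, 2 downstream sites were called against both controls without TNFalpha and against input only with it. One at 129140134 to 129140495 ranked 2309 of 7919 without TNFalpha and 5575 of 8040 with it in the input-controlled lists. The other was a pair of adjoining peaks without TNFalpha, from 129527008 to 129527320 and from 129527331 to 129527691, where 1 peak of 279 bp was called with TNFalpha at rank 6565. All 3 peaks were weak against IgG without TNFalpha, at ranks 3277, 2885 and 2615 of 3323.

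The remaining sites were called against a single control in a single library. Without TNFalpha these were 10 sites called against input, at ranks 3093 to 7391 of 7919. With TNFalpha 4 were called against input, at ranks 2597 to 7481 of 8040, and 2 against IgG, at ranks 4014 and 4283 of 4439. Among the 12 input-controlled peaks without TNFalpha that were not called against IgG, 10 overlapped no peak with TNFalpha (83.3%, 95% Wilson interval 55.2 to 95.3%), beside 64.4% in the genome. With TNFalpha 4 of 9 overlapped no peak without it (44.4%, 18.9 to 73.3%), beside 61.1%. Both intervals, for counting error only, include the genome's share.

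The limits of the interval did not divide a group of peaks. The nearest site outside it on the upstream side, at 127266271 to 127266437, was 234 kb beyond the limit and was called in 1 list, without TNFalpha against input (score 76.6). On the other side the nearest was 47.8 kb beyond the limit, at 130547847 to 130548290, and was called with TNFalpha only, with scores of 86.8 against IgG and 56.3 against input. The outermost sites inside were at 127525442 to 127525656, called without TNFalpha against input with a score of 63.4, and at 130279796 to 130280218, called with TNFalpha with scores of 67.9 against IgG and 110 against input.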

How the data were processed

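The submitters' processing notes name CASAVA 1.8, Bowtie 0.12.9 and the build hg19 for the c-Jun ChIP-seq reads of BT549 cells. What was deposited for each of the 2 c-Jun libraries is a pair of headerless BED lists, with 1 score per peak computed by the authors. Peak names begin with MACS, a peak caller, for which version, threshold and filters are not given in the sources used. The lowest score was about 50 in every list. Positions are given 1-based. Both lists of a library rest on the same c-Jun reads, so they are not replicates.

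Ranks were computed over each whole list. Of sites with several peaks, the highest scoring one was used. Densities took the highest peak end of each chromosome as its end. The limits of PVT1 in hg19 are recalled from RefSeq and not read from a file; its length, 307 kb, equals that in the GRCh38.p14 RefSeq table, in which 19 of 19 gene names searched were found. Peaks with centre in PVT1 or within 100 kb of MYC, the nearest on each side, the 10 highest scoring of each library and those in 1 library only are named by position. The interval, lists and rules were chosen with earlier results of these data known. No DNA sequence is printed. Overlaps were computed with Python 3.11.15, numpy 2.4.6 and pandas 2.3.3, intervals with scipy 1.17.1 and plots with matplotlib 3.10.9. Overlap counts were checked against bedtools 2.31.1 and on simulated data.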

Additional observations from a re-analysis of the deposited data

How the results depend on the processing

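No paired analysis was possible because there was only 1 library with and 1 without TNFalpha, and leaving one out was impossible too. Of 48 values recomputed under alternatives, 33 stayed within 1.5 times the main count or inside the main interval, and 15 moved. All 15 were counts of peaks found in 1 library only or shares of peaks found in both. None was a median rank percentile or a count by position. The interval of such a median was wide, 2.48 to 71.6% with TNFalpha against IgG, so staying inside it says little. The main values were 8 peaks found only with TNFalpha, 2 found only without it, and 57.9% and 87.5% shared with and without TNFalpha. The peaks found only without TNFalpha became 7 of 16 with the IgG-controlled lists alone and 12 of 28 with the input-controlled lists alone. They became 7 of 16 when a hit had to be a both-control peak. With reciprocal overlap of at least 50% they were 5 of 16, and with equal numbers of IgG-controlled peaks 8 of 16. The genome's shares under these settings are not given. The share without TNFalpha became 56.2%, 57.1% and 56.2% in the first 3 of these and 50% with equal numbers. Among peaks scoring in the upper 50% against IgG the counts were 3 of 10 with TNFalpha and 0 of 8 without it, and the share without TNFalpha was 100%. Within 500 kb of the MYC transcript start they were 3 of 8 and 0 of 7, again with 100%. Fewer peaks were compared in both of these settings, which lowers the counts. The cause of the higher share, and of the changes under the other settings, was not tested. No excess with TNFalpha was left when calls against input only were used (12 and 12) or equal numbers (8 and 8). Each time the region held the same total in both libraries, 28 and 28 or 16 and 16. A shared peak mostly overlapped a single peak of the other library, so equal totals left nearly equal remainders. These equal counts therefore cannot test the excess. Counts by position did not change when any overlap with a gene was used in place of the peak centre. They could not change, because no peak lay across a limit of MYC or PVT1. These counts are among the 33 values that stayed, so that number overstates the stability. Depth, which limits every statement that a site was not called, is unknown.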
